A study of Mus musculus with 22 samples.

Results

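The 10 genes described here encode the switch at the head of the integrated stress response: the eIF2 kinases Eif2ak1, Eif2ak2, Eif2ak3 and Eif2ak4, the GCN2 inhibitor Impact, the alpha subunit of eIF2 (Eif2s1), the eIF2B subunits Eif2b4 and Eif2b5, and the phosphatase regulators Ppp1r15a and Ppp1r15b. They were chosen by gene symbol for their place in the pathway, and all 10 were found among the 38924 gene IDs of the files and passed the filter on low counts. Whole spinal cord was taken from mice aged 7 months on a B6N;B6J background and profiled by sequencing of polyA RNA. The genotypes were homozygous for the E196K change in Yars, the gene for tyrosyl-tRNA synthetase (E196K/E196K, HOM, 10 libraries), heterozygous for it (E196K/+, HET, 6 libraries) and wild type (WT, 6 libraries). No treatment is given for any genotype, and how the E196K allele was made is not stated in the sources used here. A numbered library such as HOM 3 carries a number that only names it. The labels do not say that each library came from a separate animal, so any p-value reflects the spread among these libraries and no more.

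The kinases each respond to a different stress. HRI, the product of Eif2ak1, responds to lack of heme and to stress in mitochondria; PKR, from Eif2ak2, to double-stranded RNA; PERK, from Eif2ak3, to unfolded protein in the endoplasmic reticulum; and GCN2, from Eif2ak4, to uncharged tRNA and stalled ribosomes. All of them phosphorylate eIF2 alpha, which then blocks eIF2B, the factor that reloads eIF2 with GTP. General translation slows, while mRNAs such as that of the transcription factor ATF4 are translated more. Ppp1r15a (GADD34) and Ppp1r15b (CReP) bring protein phosphatase 1 to eIF2 alpha and reverse the step. In mouse models of neuropathy caused by mutant tRNA synthetases, GCN2 has been reported to switch on ATF4 targets in spinal motor neurons. RNA sequencing measures none of the phosphorylation steps, so the values below are transcript levels alone.

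Libraries held between 24.45 M and 42.81 M counts, and 16974 genes were tested. Levels within a gene are given as CPM, counts scaled to a fixed total after adjustment for library composition, and levels between genes as TPM, which also divides by transcript length. Neuronal, oligodendrocyte, astrocyte, microglial and spinal Hox markers were counted in all 22 libraries, as the tissue label states. HOM 3 stood apart: the summed level of 5 Schwann cell genes was 2262 CPM there and at most 4.35 CPM in any other library, that of 3 fibroblast genes was 290 against at most 26.1 CPM, and that of 5 blood and myeloid genes was 1464 against at most 790 CPM. Its motor neuron sum was the lowest of the 10 HOM libraries (73.0 CPM). Each library's title opens with 1 of 3 numbers of unstated meaning, 39992, 40411 and 40412. These prefixes hold 5, 3 and 2 HOM libraries, 0, 1 and 5 HET libraries, and 1, 2 and 3 WT libraries. The spinal level marker Hoxc10 split by prefix, with 50.8 to 58.2 CPM in the libraries titled 39992 and 27.7 to 38.0 CPM in the rest. Another, Hoxc8, was at 8.42 CPM in HOM 3 and at least 31.9 CPM elsewhere. What lies behind these differences was not tested, and the first of them is uneven over the genotypes. In whole tissue, fewer cells of a type and less RNA per cell cannot be told apart.

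None of the 10 genes passed the test in any comparison, at a Benjamini-Hochberg adjusted p below 0.05 in edgeR's quasi-likelihood test over all genes. In HOM against WT the count was 0 of 10, where 0.0943% of all tested genes passed, and in HOM against HET it was 0 of 10, where 0.106% passed. In HET against WT it was 0 of 10, and no other gene passed either (0%). At an unadjusted p below 0.05 the count was also 0 of 10 each time, where 5.91% of all genes lay below it in HOM against WT, 3.41% in HET against WT and 8.80% in HOM against HET. DESeq2 and limma on TPM also called 0 of the 10. At percentages this small, 0 of 10 is close to the background, so the intervals say more than the counts.

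Those intervals were narrow for most of the genes. In HOM against WT, the 95% interval of the fold change lay between 0.8 and 1.25 for 9 of the 10 genes, and between 0.9 and 1.1 for 7. The exception to the wider range was Ppp1r15a. The same wider range held 9 intervals in HET against WT and 8 in HOM against HET, where Eif2ak2 and Ppp1r15a passed beyond it. Every interval included no change. In direction, 6 of the 10 were above WT in HOM and 4 in HET, with median log2 fold changes of 0.02 and -0.01, next to 53.7% and 51.9% of all tested genes. Both comparisons share the WT libraries. The plot of counts by library shows each value behind these statements.

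**Figure D1:**
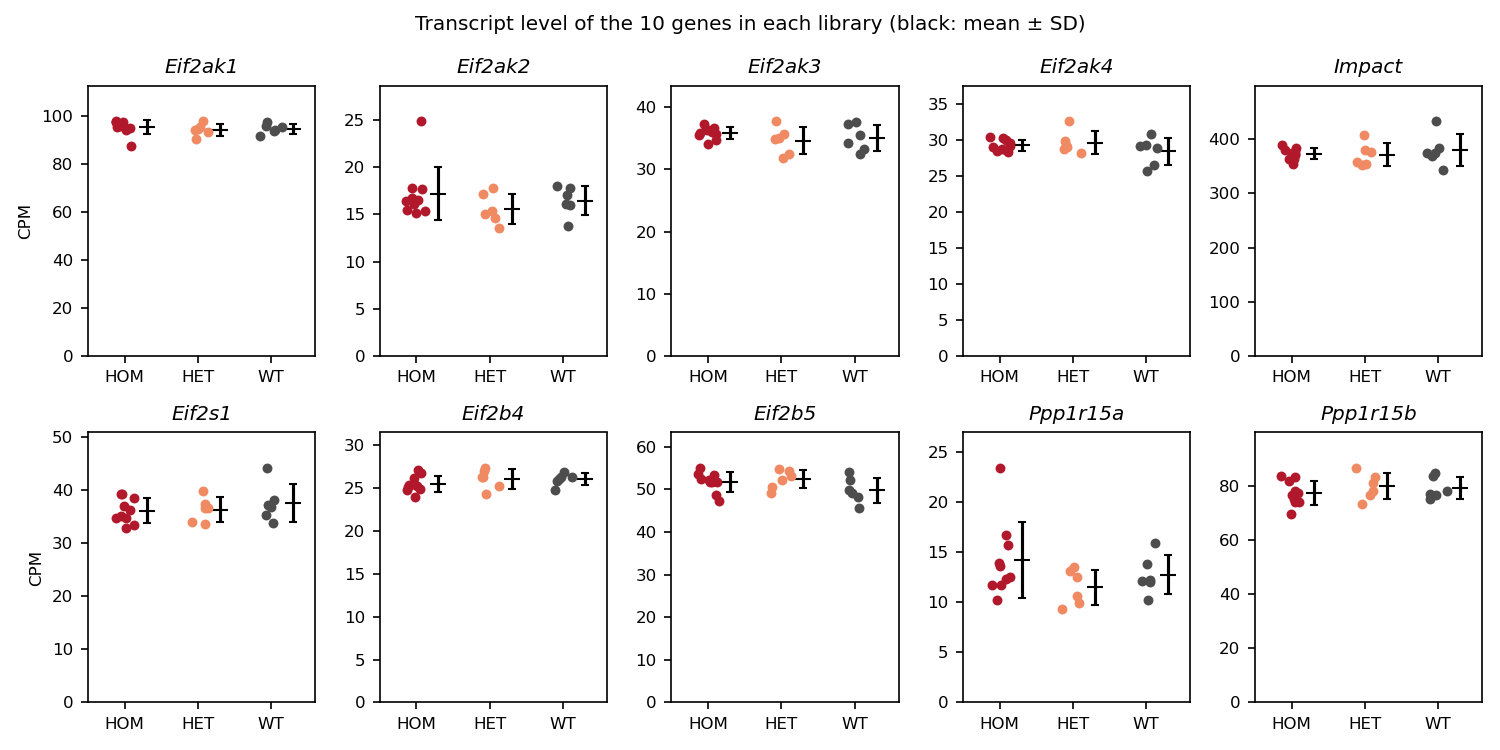
Level of each of the 10 genes in CPM (y axis, from 0) in HOM, HET and WT spinal cord, 1 point per library, with the mean ± SD in black. The groups overlap in every panel, and the points that stand away from their group are HOM 8 for Eif2ak2 at 24.9 CPM and HOM 3 for Ppp1r15a at 23.4 CPM and for Eif2ak1 at 87.6 CPM.

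Per transcript length, Impact was by far the most abundant of the 10, at 203 ± 8.65 TPM (mean ± SD, n = 22 libraries), above 96.1% of the tested genes. Eif2ak1 followed at 40.5 ± 1.97 TPM, Eif2b4 at 32.4 ± 1.89 TPM and Eif2b5 at 30.3 ± 2.17 TPM. The 2 eIF2B subunits did not separate cleanly: Eif2b4 was above Eif2b5 in 16 of 22 libraries. Ppp1r15b stood at 26.4 ± 1.76 TPM, Eif2s1 at 20.0 ± 0.925 TPM and Eif2ak3 at 14.8 ± 1.15 TPM. At the low end, Ppp1r15a (10.8 ± 2.70 TPM) and Eif2ak4 (10.8 ± 0.857 TPM) could not be ordered, each being the higher one in 11 of 22 libraries. Eif2ak2 was lowest at 8.31 ± 1.35 TPM, above 39.0% of the tested genes.

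**Figure D2:**
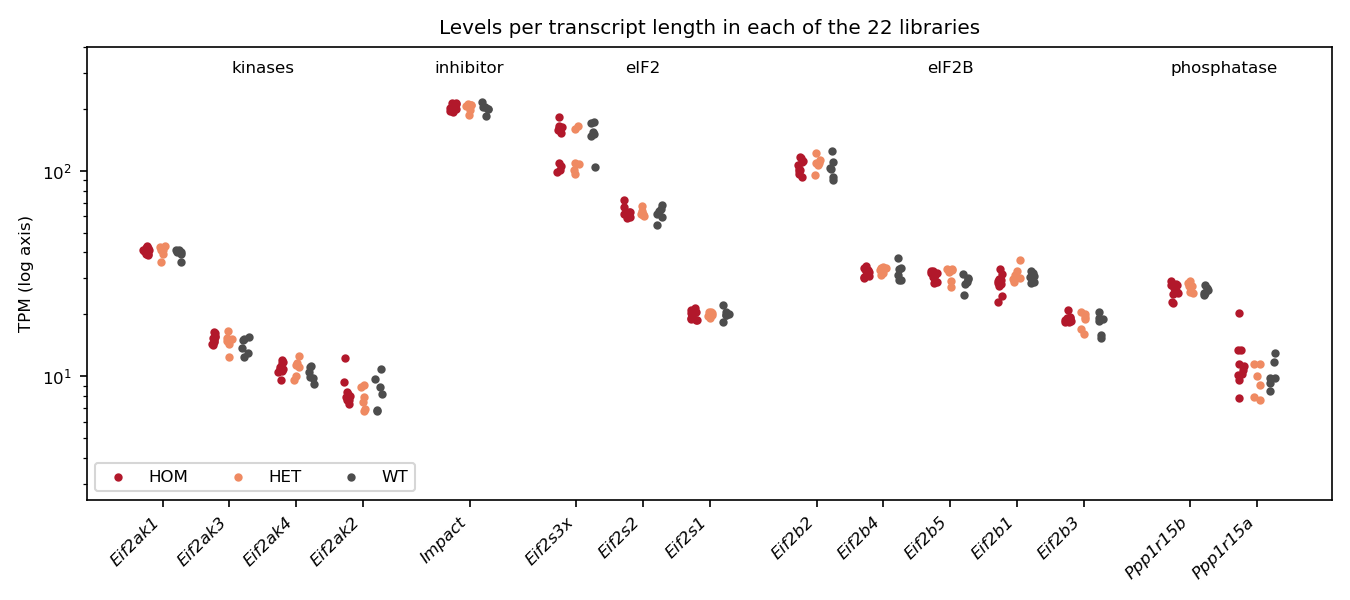
TPM on a log axis in each library for the kinases, Impact, and the subunits of eIF2, eIF2B and the phosphatase, with HOM, HET and WT side by side for each gene. Impact lies near 203 TPM and Eif2ak1 near 40.5 TPM in all genotypes, and Eif2s3x splits into a higher and a lower set of libraries.

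Among the kinases, Eif2ak1 (chr5:143817788-143904251, plus strand; GRCm38 here and below) supplied more than the other 3 together. It made up 54.2 ± 1.32% of the summed kinase TPM in HOM, 54.7 ± 0.993% in HET and 54.6 ± 1.94% in WT (SD, n = 10, 6 and 6). Eif2ak3 made up 20.2 ± 0.911%, 19.9 ± 1.12% and 19.5 ± 1.13% in the same order of genotypes. For Eif2ak4 the shares were 14.5 ± 0.601% in HOM, 14.8 ± 0.758% in HET and 14.1 ± 0.654% in WT, and for Eif2ak2 they were 11.2 ± 1.59%, 10.6 ± 1.39% and 11.8 ± 2.29%. For each kinase the shares of the genotypes overlapped. HRI was the leading kinase transcript in all 22 libraries.

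Eif2ak1 was also the steadiest of the 10 genes. It ran from 87.6 to 97.9 CPM in HOM (median 95.9), from 90.5 to 98.0 CPM in HET (median 94.4) and from 91.6 to 97.6 CPM in WT (median 94.9). The groups lay on top of each other, with HOM 3 alone below the rest. The fitted log2 fold change in HOM against WT was 0.01 (SE 0.0255, adjusted p = 0.948, edgeR), an interval from 0.970 to 1.04 fold. Its SD within genotypes was 0.0413 on the log2 scale, lower than that of all but 1.49% of tested genes (median over all genes 0.118). Without stated strand counting, reads from Aimp2, which overlaps Eif2ak1 by 1548 bases on the other strand, cannot be told apart from its own there. Aimp2 averaged 459 counts per library, where Eif2ak1 had a median of 3106.

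Eif2ak4, the GCN2 gene (chr2:118388618-118475234, plus strand), gave 28.3 to 30.4 CPM in HOM (median 29.1), 28.2 to 32.6 CPM in HET (median 29.2) and 25.7 to 30.9 CPM in WT (median 29.1). The 3 medians were almost the same, and the HOM range lay wholly inside the WT range. The fit gave a log2 fold change of 0.04 for HOM against WT (SE 0.0376, fold interval 0.977 to 1.09, adjusted p = 0.828, edgeR) and 0.06 in HET against WT (interval 0.981 to 1.11). A rise in the GCN2 transcript of more than about 1.1-fold therefore lay outside the interval for HOM. Activation of GCN2 is a change in the protein's activity and need not alter this value.

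Impact, whose protein competes with GCN2 for its activator GCN1 and is known for its high level in neurons, ran from 355 to 389 CPM in HOM (median 374), from 353 to 409 CPM in HET (median 368) and from 343 to 433 CPM in WT (median 374). HOM libraries were packed inside the spread of the other genotypes, and WT 5 was the highest of all 22. In HOM against WT the log2 fold change was -0.03 (SE 0.0382, interval 0.930 to 1.04, adjusted p = 0.897, edgeR). Per length, Impact exceeded Eif2ak4 18.7 ± 0.991 times in HOM, 18.7 ± 1.82 times in HET and 19.8 ± 2.09 times in WT. Inhibitor transcript thus outnumbered kinase transcript by at least 15.9 to 1 in every library.

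PERK is encoded by Eif2ak3 (chr6:70844515-70905245, plus strand), which ran from 34.0 to 37.4 CPM in HOM (median 35.9), from 31.8 to 37.8 CPM in HET (median 35.0) and from 32.5 to 37.7 CPM in WT (median 34.9). HOM libraries filled the middle and top of the WT range without passing it. The log2 fold change in HOM against WT was 0.03 (SE 0.0374, interval 0.969 to 1.08, adjusted p = 0.867, edgeR). In HOM against HET it was 0.05 (adjusted p = 0.721), and a fit that includes the title prefix gave 0.09 at an unadjusted p of 0.0481 (adjusted p = 1, edgeR). Hspa5, the chaperone BiP that holds PERK inactive, had a log2 fold change of 0.01 in HOM against WT, with an interval from 0.848 to 1.19 fold.

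Eif2ak2, the gene for PKR (chr17:78852564-78882573, minus strand), is itself induced by interferon. Its promoter in RefSeq (GRCm38.p6, chr17:78882523-78882822, minus strand, 250 bases before to 50 after the start site) is shown because the gene's highest library was also high in interferon-induced genes. Capitals mark the match to the interferon-stimulated response element, searched on both strands as GAAA and GAAA with any 2 bases between.
Eif2ak2 promoter: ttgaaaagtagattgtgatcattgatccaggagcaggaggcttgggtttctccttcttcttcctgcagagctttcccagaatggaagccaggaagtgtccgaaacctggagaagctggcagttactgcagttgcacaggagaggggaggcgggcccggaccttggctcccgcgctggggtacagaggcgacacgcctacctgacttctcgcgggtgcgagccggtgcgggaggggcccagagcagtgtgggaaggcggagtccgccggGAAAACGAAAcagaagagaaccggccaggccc
The match begins 18 bases after the start site. This element was in 3.99% of 27025 RefSeq promoters, in 7 of the 9 listed interferon-induced genes with an entry, and in 3 of the 8 genes with an entry here: Eif2ak2, Eif2s1 and Ppp1r15a.

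Eif2ak2 ran from 15.2 to 24.9 CPM in HOM (median 16.5), from 13.6 to 17.8 CPM in HET (median 15.2) and from 13.8 to 18.0 CPM in WT (median 16.6). A single library, HOM 8 at 24.9 CPM, was above everything else, and the next HOM library was at 17.8 CPM, inside the WT range. Its log2 fold change stood at 0.07 for HOM against WT (SE 0.0884, interval 0.923 to 1.19, adjusted p = 0.879) and at 0.15 for HOM against HET (SE 0.0890, interval 0.975 to 1.26, adjusted p = 0.652, both edgeR). Without HOM 8 these were -0.01 and 0.07.

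HOM 8 also carried more interferon-induced transcripts. The summed level of 12 such genes was 112 CPM in HOM 8 and 129 CPM in HOM 3, and 74.8 to 96.4 CPM in the other HOM libraries, against 70.7 to 82.7 CPM in HET and 80.3 to 83.9 CPM in WT. HOM 3 had the highest level of 22 for 7 of these genes and HOM 8 for the other 5, so that Eif2ak2 moved with the list in HOM 8 but was 15.4 CPM in HOM 3. As a group, 12 of 12 interferon-induced genes were above WT in HOM, as were 53.7% of all genes, with a median log2 fold change of 0.18 (0.01 over all genes), and none passed. Without HOM 3 that median was 0.07, and without HOM 8 it was 0.12. Against HET, 12 of 12 were higher in HOM too, next to 53% of all genes, with a median of 0.27. Of these, 0 were called and 5 had an unadjusted p below 0.05, where 8.80% of all genes lay below it. There, without HOM 3, 10 of 12 were higher with a median of 0.14, and 3 lay below 0.05 without HOM 3 or without HOM 8. Ifit3, 1 of the 12, averaged 14.7 ± 3.53 CPM in HOM, 11.4 ± 1.40 CPM in HET and 12.7 ± 0.957 CPM in WT. The part of interferon signalling, or of the cells HOM 3 holds, in the Eif2ak2 values was not tested.

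**Figure D3:**
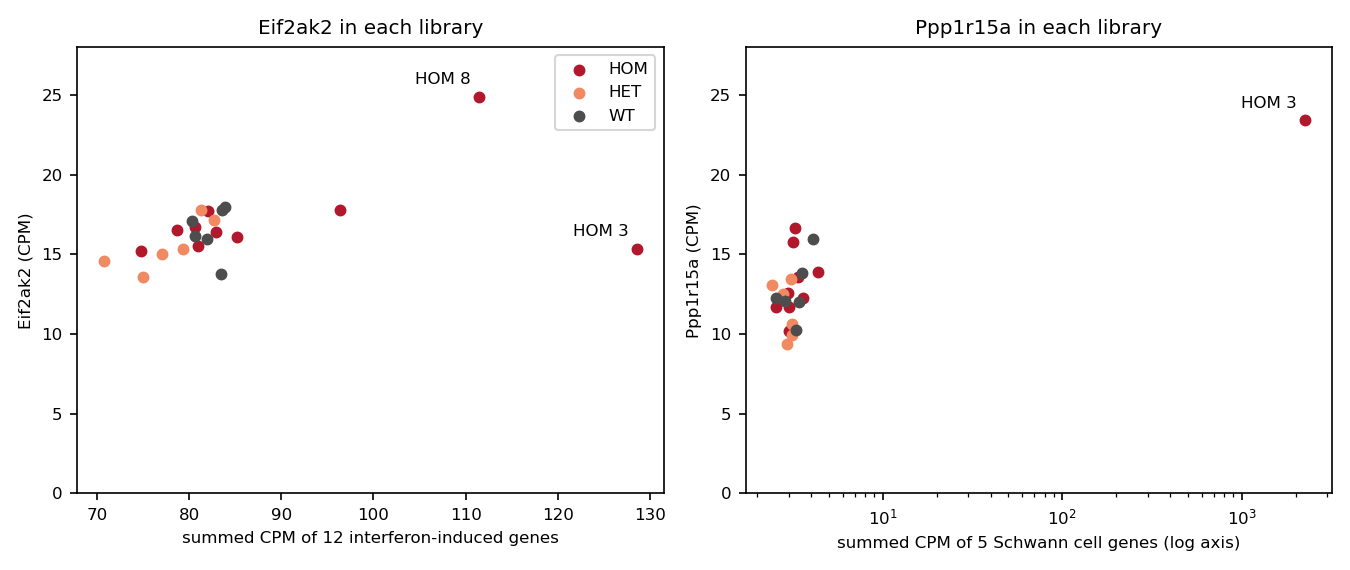
Left, Eif2ak2 (CPM) against the summed CPM of 12 interferon-induced genes, and right, Ppp1r15a (CPM) against the summed CPM of 5 Schwann cell genes on a log axis; 1 point per library, coloured by genotype. HOM 8 is the highest for Eif2ak2, and HOM 3, at 2262 CPM of Schwann cell genes, is the highest for Ppp1r15a.

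The activators and partners of the kinases lay close to WT as well. Of 13 such genes, all 13 were above WT in HOM, where 53.7% of all tested genes were, and 7 of 13 in HET, where 51.9% were. In either comparison 0 passed. In HOM against HET, 11 of 13 were higher, next to 53% of all tested genes, and 0 passed. Their median in HOM against WT was 0.03 on the log2 scale, and the largest was 0.09 for Rplp2 (103.7 ± 7.32 CPM in HOM and 97.3 ± 3.85 CPM in WT, unadjusted p = 0.0478, adjusted p = 0.815, edgeR), a protein of the ribosomal P-stalk, which can activate GCN2. HOM 3 was the highest library for Rplp2 (117.4 CPM), and without it the unadjusted p was 0.0875 (edgeR). In HOM against WT, 0 of the 13 lay below 0.05 without HOM 3, without HOM 8 or when the title prefix was fitted. With the Xist level as a covariate, 1 of the 13 did. Adar, the RNA editor that keeps double-stranded RNA from PKR, had a log2 fold change of 0.04 in HOM against WT and 0.07 in HOM against HET (unadjusted p = 0.0270, adjusted p = 0.503). For Gcn1l1, whose product GCN1 is the co-activator that Impact competes for, the value in HOM against WT was 0.04 (interval 0.963 to 1.09). Map3k20 (ZAK, a sensor of ribosome collisions) was at 0.02 and Dele1, which relays mitochondrial stress to HRI, at 0.03.

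The substrate of the kinases, Eif2s1 (chr12:78861819-78887010, plus strand), ran from 32.9 to 39.3 CPM in HOM (median 35.7), from 33.5 to 39.8 CPM in HET (median 36.6) and from 33.8 to 44.2 CPM in WT (median 37.0). WT 5 lay above every other library, and the rest were mixed by genotype. HOM against WT gave a log2 fold change of -0.06 (SE 0.0514, interval 0.893 to 1.04, adjusted p = 0.831) and -0.05 in HET against WT (interval 0.890 to 1.05, both edgeR). In the libraries titled 40411 and 40412 alone, the value in HOM against WT was -0.14 (unadjusted p = 0.0426, adjusted p = 0.783). Within the prefixes it was -0.08 in 40411 and -0.16 in 40412, and 0.04 in 39992, which holds 1 WT library.

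The alpha subunit had the lowest transcript level of the eIF2 trimer. Eif2s2, for the beta subunit, stood at 62.5 ± 3.67 TPM, and exceeded Eif2s1 3.16 ± 0.246 times in HOM, 3.12 ± 0.0993 times in HET and 3.09 ± 0.123 times in WT. Eif2s3x, for the gamma subunit from the X chromosome, stood at 138 ± 30.3 TPM, with a far wider spread. The Y copy, Eif2s3y, was not on the list and was looked at after the values of Eif2s3x had been seen. In 13 libraries with Xist above 1 CPM (6 HOM, 2 HET, 5 WT), Eif2s3x was 147 to 183 TPM and Eif2s3y was listed at 0. The other 9 libraries (4 HOM, 4 HET, 1 WT) had Eif2s3x at 96.2 to 109 TPM and Eif2s3y at 60.0 to 81.1 TPM, which summed to 161 to 182 TPM. The labels give no sex, and genotypes were unevenly spread over these sets. The log2 fold change of Eif2s3x was -0.15 in HOM against WT (interval 0.719 to 1.13) and -0.34 in HET against WT (interval 0.615 to 1.02, adjusted p = 1, edgeR), and in each set of libraries the genotypes overlapped.

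**Figure D4:**
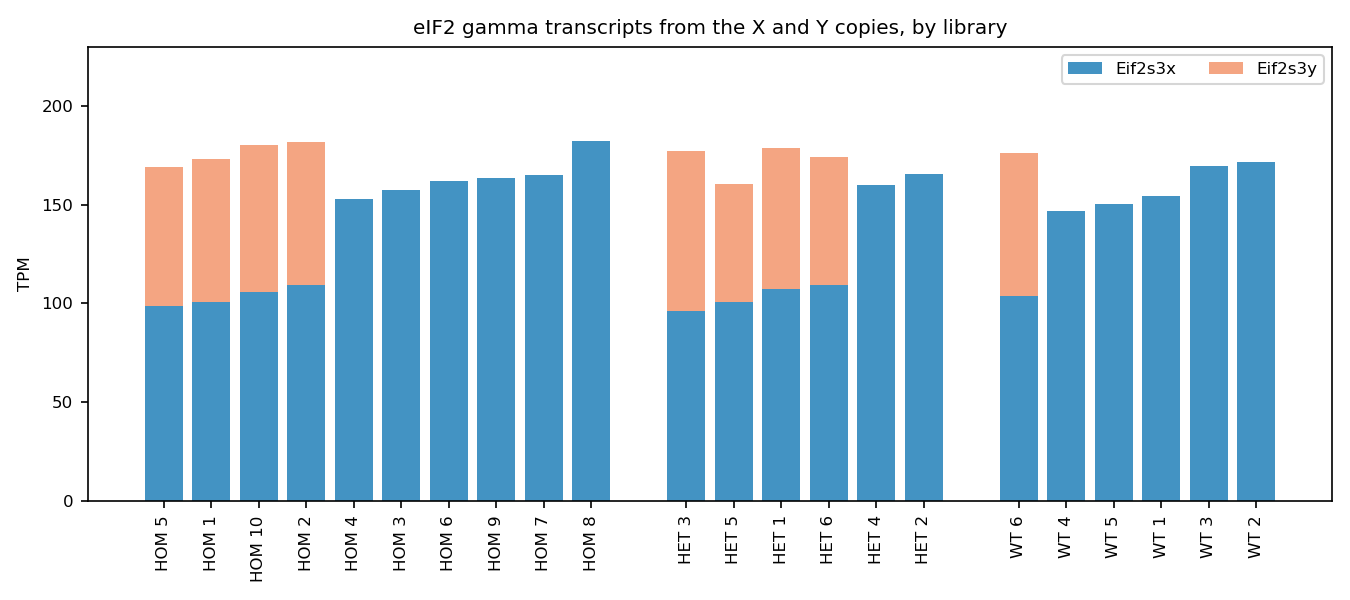
Stacked TPM of Eif2s3x (blue) and Eif2s3y (orange) in each library, grouped as HOM, HET and WT and sorted by Eif2s3x within a group. Libraries with Eif2s3y at 60.0 to 81.1 TPM have Eif2s3x at 96.2 to 109 TPM, and the total is 147 to 183 TPM in all 22.

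Of the eIF2B complex, the set holds Eif2b5 (epsilon, the catalytic subunit; chr16:20498817-20509323, plus strand) and Eif2b4 (delta, of the regulatory core that binds phosphorylated eIF2; chr5:31187558-31193430, minus strand). Eif2b5 ran from 47.4 to 55.1 CPM in HOM (median 52.0), from 49.2 to 54.7 CPM in HET (median 52.7) and from 45.6 to 54.0 CPM in WT (median 49.4). Both mutant medians were above the WT median, and the ranges overlapped over most of their length. For HOM against WT the log2 fold change came to 0.06 (SE 0.0366, interval 0.987 to 1.10, unadjusted p = 0.137, adjusted p = 0.817) and 0.07 in HET against WT (SE 0.0408, interval 0.992 to 1.11, unadjusted p = 0.0883, adjusted p = 1, both edgeR). These were the smallest unadjusted p-values of the 10 genes against WT. HOM against HET gave -0.02 (interval 0.939 to 1.04).

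Eif2b4 ran from 24.0 to 27.2 CPM in HOM (median 25.3), from 24.3 to 27.4 CPM in HET (median 26.3) and from 24.8 to 26.9 CPM in WT (median 26.2). HOM 3 was the lowest of all libraries, and the genotypes were otherwise interleaved. HOM against WT gave -0.03 on the log2 scale (SE 0.0323, interval 0.935 to 1.03, adjusted p = 0.858) and below 0.01 in size in HET against WT (interval 0.951 to 1.06, both edgeR). Snx17 overlaps Eif2b4 by 204 bases on the opposite strand and averaged 2303 counts per library, against a median of 842 for Eif2b4, so stray reads could weigh here if strand was not used. The other regulatory and catalytic subunits were measured at 106 ± 9.42 TPM for Eif2b2, 29.8 ± 2.86 TPM for Eif2b1 and 18.7 ± 1.50 TPM for Eif2b3. By TPM, Eif2b2 was above the other eIF2B subunits in all 22 libraries, and Eif2b5 was above Eif2b1 in 14 of 22. Without division by length, Eif2b2 ran from 25.6 to 30.9 CPM and Eif2b5 from 45.6 to 55.1 CPM. The lead of Eif2b2 thus depends on its estimated transcript length, which was not examined.

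Across the 9 further subunits and partners of eIF2 and eIF2B, 1 of 9 was above WT in HOM and 4 of 9 in HET. Over all tested genes these shares were 53.7% and 51.9%. The medians of the 9 were -0.03 and -0.02 on the log2 scale, with 0 passing in either. In HOM against HET, 5 of 9 were higher, next to 53% of all tested genes, and 0 passed. Eif5, which promotes GTP hydrolysis by eIF2, was at -0.01 in HOM against WT, and Cdc123, which helps assemble eIF2, at -0.02. Eif2a, an alternative initiation factor, was at -0.04 and Eif2d at 0.00, each with an interval that included no change.

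Ppp1r15a and Ppp1r15b encode the inducible and the constitutive arm of eIF2 alpha dephosphorylation. The Ppp1r15a promoter (RefSeq GRCm38.p6, chr7:45526219-45526518, minus strand) is shown because this gene was the most variable of the 10. Capitals mark matches to the cyclic AMP response element TGACGTCA and to the interferon-stimulated response element as above, both searched on both strands.
Ppp1r15a promoter: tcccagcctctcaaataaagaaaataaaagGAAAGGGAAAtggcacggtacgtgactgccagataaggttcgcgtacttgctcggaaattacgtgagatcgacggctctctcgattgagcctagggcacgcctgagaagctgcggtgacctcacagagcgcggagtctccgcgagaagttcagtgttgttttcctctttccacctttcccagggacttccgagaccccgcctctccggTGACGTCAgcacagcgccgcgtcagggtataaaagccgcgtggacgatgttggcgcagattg
Ppp1r15a was the 1 gene of the 8 with an entry that held TGACGTCA, which begins 12 bases before the start site and was in 2.03% of 27025 promoters. The C/EBP-ATF response element TGATGNAA, through which ATF4 acts, was not found in these 300 bases, nor in any of the other 7 promoters. No match says only that the letters are not in that window.

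Ppp1r15a (chr7:45522916-45526268, minus strand) ran from 10.2 to 23.4 CPM in HOM (median 13.1), from 9.35 to 13.5 CPM in HET (median 11.6) and from 10.3 to 16.0 CPM in WT (median 12.2). HOM 3 was the highest of all 22 libraries. Of the 10 HOM libraries, 5 were above every HET library and 2 above every WT library. The fitted log2 fold changes were 0.15 for HOM against WT (SE 0.144, interval 0.905 to 1.37, adjusted p = 0.835), -0.15 for HET against WT (SE 0.162, interval 0.716 to 1.14, adjusted p = 1) and 0.30 for HOM against HET (SE 0.145, interval 0.999 to 1.52, unadjusted p = 0.0507, adjusted p = 0.565, all edgeR).

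That last value was the furthest from no change among the 30 tests of these genes, and it rested in part on single libraries. Without HOM 3, Ppp1r15a was at 0.19 in HOM against HET (adjusted p = 0.627) and 0.05 in HOM against WT (adjusted p = 0.943). With the title prefix as a covariate the value in HOM against HET was 0.14. Within prefixes it was 0.55 in 40411, with 1 HET library, and 0.03 in 40412, with 2 HOM and 5 HET libraries. DESeq2 gave 0.30 with an unadjusted p of 0.0302 and an adjusted p of 0.499. Schwann cell, fibroblast and blood genes were all highest in HOM 3 as well, and their part in the Ppp1r15a value was not tested.

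Ppp1r15a also belongs to the genes that respond within minutes to stimulation of a cell or handling of a tissue. Of 10 immediate early genes, 10 were above WT in HET, next to 51.9% of all tested genes. Their median log2 fold change was 0.42 (0 called), and 7 had an unadjusted p below 0.05 in edgeR, where 3.41% of all genes did. That count was 5 with the title prefix or with Xist as a covariate. Their summed level was highest in HET 3 (236 CPM) and HET 6 (209 CPM), and 125 to 162 CPM in the other HET libraries. In HOM 7 were above WT (median 0.01, 0 called), next to 53.7% of all genes. Against HET, 0 of 10 were higher in HOM, next to 53% of all genes, and 7 had an unadjusted p below 0.05, where 8.80% of all did. Ppp1r15a itself had a log2 fold change of -0.15 in HET against WT, with an interval that included no change. Within prefixes the value was -0.46 in 40411, with 1 HET library, and 0.04 in 40412, with 5 HET and 3 WT libraries. Its level was 9.906 CPM in HET 3 and 10.64 CPM in HET 6, where WT ran from 10.26 to 15.95 CPM. The part of such a response in the Ppp1r15a values was not tested. Junb averaged 10.0 ± 1.42 CPM in HOM, 14.1 ± 3.76 CPM in HET and 10.3 ± 0.804 CPM in WT.

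Ppp1r15b (chr1:133131143-133139783, plus strand) ran from 69.5 to 83.5 CPM in HOM (median 77.0), from 73.2 to 86.6 CPM in HET (median 79.5) and from 75.0 to 84.7 CPM in WT (median 77.5). The ranges shared most of their length, and the lowest library was HOM 4. Its log2 fold change in HOM against WT was -0.03 (SE 0.0413, interval 0.921 to 1.04, adjusted p = 0.871, edgeR). Per length, the constitutive regulator exceeded the inducible one 2.33 ± 0.483 times in HOM, 2.91 ± 0.505 times in HET and 2.58 ± 0.387 times in WT, and in every library (lowest 1.36, highest 3.60). The catalytic subunits of protein phosphatase 1 were far above both: in HOM, Ppp1ca stood at 139 ± 7.60 TPM, Ppp1cb at 116 ± 6.65 TPM and Ppp1cc at 117 ± 9.62 TPM. Of these 3, 2 were above WT in HOM, next to 53.7% of all tested genes, and 0 passed.

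Genes downstream of the switch did differ between genotypes. A list of 14 genes of the response downstream of eIF2 phosphorylation was taken from general knowledge of ATF4 and its targets. It was chosen with earlier results of these libraries known. In HOM 13 of the 14 were above WT, next to 53.7% of all tested genes. Of the 14, 5 rose, where 0.0884% of all tested genes rose. Slc7a1, a carrier of cationic amino acids, reached 94.1 ± 6.40 CPM in HOM, 73.7 ± 0.990 CPM in HET and 71.2 ± 3.09 CPM in WT (log2 fold change 0.40 in HOM against WT, SE 0.0392, adjusted p = 1.01e-06, edgeR). Chac1, which degrades glutathione, averaged 10.0 ± 1.22 CPM in HOM, 6.60 ± 0.524 CPM in HET and 6.86 ± 0.514 CPM in WT (0.55, adjusted p = 0.000359). Atf4 itself was 90.6 ± 5.36 CPM in HOM, 85.5 ± 3.87 CPM in HET and 77.3 ± 2.98 CPM in WT (0.23, adjusted p = 0.00461). Sesn2, a brake on mTORC1, was at 24.3 ± 2.28, 20.5 ± 0.566 and 20.0 ± 1.40 CPM in HOM, HET and WT (0.28, adjusted p = 0.0285). The fifth, the hormone gene Fgf21, had 1.85 to 5.35 CPM in HOM, 0 to 0.163 CPM in HET and 0 counts in the 6 WT libraries, which allows up to 0.0150 CPM over the WT group, counting error only. Fgf21 passed the filter on low counts only through its HOM libraries, so its place above WT and above HET was fixed in advance. The counts out of 14, here and below, include Fgf21, and for this gene the shares over all genes are no yardstick. Slc7a1, Chac1, Atf4 and Sesn2 had counts in every library.

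In HOM against HET, 12 of 14 were higher, next to 53% of all tested genes. Of the 14, 3 rose (0.0766% of all tested genes): Slc7a1, Chac1 and Fgf21, the last fixed in advance by the filter. Without HOM 3, 5 of the 14 rose, with Sesn2 (adjusted p = 0.0316) and the stress-induced gene Nupr1 (0.00954, edgeR) added. In HET against WT 10 of 14 were higher, next to 51.9% of all tested genes, and 0 passed. There 3 of the 14 had an unadjusted p below 0.05 (2 higher, 1 lower), where 3.41% of all genes did. In the fit without HOM 3, Atf4 was at 0.15 in HET against WT (unadjusted p = 0.00189, adjusted p = 0.9998, edgeR). In that fit Nupr1 was at -0.52 (unadjusted p = 0.00212, adjusted p = 0.9998, edgeR). With HOM 3 kept and HOM 8 left out, Nupr1 was at -0.52 with an unadjusted p of 0.0314 (edgeR). HOM 3 is in neither of the groups compared. Fgf21 was at 4.13 without HOM 3 (unadjusted p = 0.0128, edgeR), and rested on 12 counts in 4 of the 6 HET libraries. The median log2 fold change of the 14 was 0.26 in HOM against WT and 0.28 in HOM against HET, where that of the 10 upstream genes was 0.02 and 0.00. Ppp1r15a is often counted as an output of the pathway too, since CHOP and ATF4 raise it in many cells, and Ddit3, the gene for CHOP, was at 0.20 in HOM against WT (15.5 ± 1.33 CPM in HOM and 13.6 ± 0.994 CPM in WT, adjusted p = 0.547). The difference between the upstream and the output genes was not tested.

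Levels of motor neuron markers stand beside this rise. The summed level of Chat, Slc5a7 and Isl1 had a median of 96.2 CPM in HOM, 110.7 CPM in HET and 109.7 CPM in WT. Chat, the enzyme that makes acetylcholine, averaged 20.8 ± 2.99 CPM in HOM, 24.4 ± 1.66 CPM in HET and 24.1 ± 2.70 CPM in WT (log2 fold change -0.22 in HOM against WT, unadjusted p = 0.0211, adjusted p = 0.815, edgeR). Slc5a7, the choline carrier, was at -0.24 (unadjusted p = 0.0213, adjusted p = 0.815). Neither passed, and Isl1 was at 0.06. Without HOM 3, the values were -0.16 for Chat and -0.20 for Slc5a7. Lower levels were not confined to motor neuron markers. All 3 markers each of oligodendrocytes, astrocytes and microglia were below WT in HOM, with medians of -0.11, -0.12 and -0.04. Over all tested genes, 53.7% were above WT. Of these markers, 1 oligodendrocyte gene had an unadjusted p below 0.05 (edgeR), where 5.91% of all genes did. Against HET, 2 oligodendrocyte genes and 1 astrocyte gene did, where 8.80% of all genes did. Of 3 general neuron markers, 1 was above WT in HOM, with a median of -0.02. HOM 3 had the lowest HOM sum for each of these cell types. Only the motor neuron values were recomputed without it. The part of these markers in the levels of the upstream or the output genes was not tested.

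**Figure D5:**
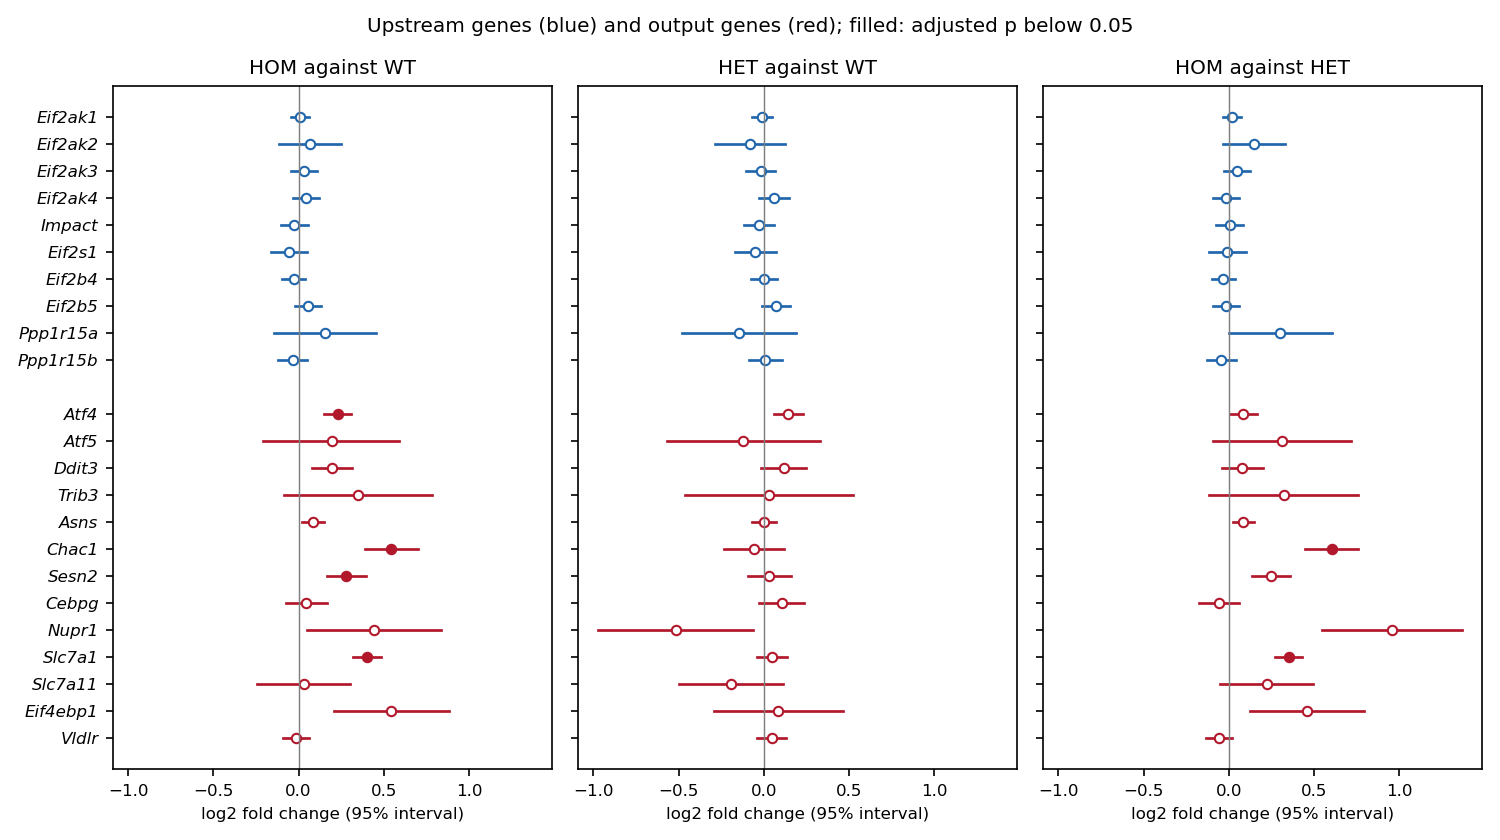
Log2 fold change with its 95% interval for the 10 genes of the switch (blue) and 13 output genes (red) in HOM against WT, HET against WT and HOM against HET; filled points have an adjusted p below 0.05. Blue points are all open and lie between -0.15 and 0.30, while Slc7a1 and Chac1 are filled in both HOM panels. Fgf21 is left out of the plot for scale.

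Windows of the promoters of Chac1 and Fgf21, both of which rose, are shown for their match to the ATF4 element. They come from RefSeq GRCm38.p6, from chr2:119351039-119351066 (plus strand) and chr7:45615612-45615639 (minus strand), and capitals mark the match to TGATGNAA, here on the reverse strand.
Chac1 window: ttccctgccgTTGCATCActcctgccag
Fgf21 window: gacccccccaTTGCATCAtccgtccagg
Among the 13 output genes with an entry 7 held a match, as did 4.51% of all 27025 promoters. Besides Chac1 and Fgf21 these were Trib3, Asns, Nupr1, Slc7a11 and Vldlr, none of which passed in HOM against WT. Slc7a1, Atf4 and Sesn2, which rose, were not among the 7. A link between the element and the rise was not tested. At a share of 4.51%, 0 of the 8 upstream promoters is near the background. The endoplasmic reticulum stress element (CCAAT and CCACG with any 9 bases between, both strands) was in 0 of the 8 upstream promoters and in 0.137% of all.

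Apart from genotype, the genes varied to different degrees and with different companions. SDs within genotypes on the log2 scale ran from 0.0413 for Eif2ak1 and 0.0528 for Eif2b4 to 0.177 for Eif2ak2 and 0.283 for Ppp1r15a, and 80.8% of all tested genes varied less than Ppp1r15a. After the mean of each genotype was removed, Eif2ak1 ran with Eif2ak3 (Spearman rho 0.65 over 22 libraries), Eif2s1 with Impact (0.63), and Eif2b4 against Impact (-0.65). These points share library preparation, depth and tissue makeup, and the values are a description. Over all tested genes, the closest to Eif2s1 were Slitrk4 (0.954) and mt-Nd2 (0.937), and the closest to Impact were Gpm6a (0.911) and Ier3ip1 (0.901). For Ppp1r15a they were the unnamed loci Gm11478 (0.927) and Gm15545 (0.902), and for Eif2b5 Pip4p1 (0.868) and Arl8a (0.866).

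The remaining genes had looser companions. Eif2b4 was closest to Hoxa6 (0.837) and Cox6a1 (0.825), Ppp1r15b to Trafd1 (0.834) and Gm20634 (0.813), and Eif2ak3 to Dhx29 (0.827) and C530025M09Rik (0.783). Eif2ak4 was closest to Asxl1 (0.780) and Gm13558 (0.756). Eif2ak2 was closest to Eif3e (0.778) and Blm (0.775), and Eif2ak1 to Pelo (0.764) and Ogfod2 (0.739). With HOM 3 left out, the value for Asxl1 was 0.830, that for Blm 0.822 and that for Ogfod2 0.704.

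Isoform use could shift without a change in gene level, and the deposited mean transcript length gives a coarse view of it. Eif2s1 and Impact have 1 transcript in the files, so their length cannot vary. Eif2ak2 varied most, with 3276 to 4195 bases in HOM, 3203 to 4051 in HET and 2749 to 4217 in WT, and Eif2b4 came next with 1518 to 1790, 1477 to 1751 and 1524 to 1770 bases. Eif2ak1 stayed between 4272 and 4330 bases in all 22 libraries. The other 8 genes were tested with limma on log2 length among 10857 genes whose length varied. None of the 8 passed in any comparison (0 genes called over all, adjusted p = 1). At an unadjusted p below 0.05 the count was 0 of 8 in each, where 4.63% of all genes lay below it in HOM against WT, 3.91% in HET against WT and 4.49% in HOM against HET.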

How the data were processed

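For each of 22 libraries the authors deposited an RSEM gene table of expected counts, TPM, FPKM and mean transcript length, per the file headers. Bowtie2 2.2.0 and RSEM 1.2.12 were used, per the submitters' processing notes. For genome build, annotation release and use of strand, nothing is given in the sources used here. RSEM shares reads among isoforms and genes, and 14.41% to 16.23% of the deposited expected counts per library were not whole. They were rounded, filtered with filterByExpr (16974 genes kept), scaled by TMM and fitted together over 3 genotypes in edgeR 4.0.16 (quasi-likelihood, robust, R 4.3.3), with Benjamini-Hochberg adjustment over all genes. TPM, deposited by the authors, served for levels between genes and for an alternative fit in limma 3.58.1. DESeq2 1.42.0 was another. The authors' FPKM values were not used. Groups follow the genotype label. The edgeR and DESeq2 fits over 3 genotypes were first tested on simulated counts, and limma on simulated counts as log2(CPM + 1) rather than TPM. The length test was tried on simulated lengths with other limma settings than those used. Fits with a covariate or with fewer libraries were not simulated.

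Symbols and positions (GRCm38, GENCODE M21) were joined by Ensembl ID and matched 37607 of 38924 IDs. Promoters are RefSeq's (GRCm38.p6). SEs come from the F statistics, and likeness used log2(CPM + 0.25). Genes named are all 10, the called genes of each list and its 2 with the smallest p in HOM against WT, and the 2 genes most like each; others were named after their values were seen. The 10 genes and all lists were chosen with earlier results of these data known. Each of the 10 genes had 261 or more counts per library.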

Additional observations from a re-analysis of the deposited data

Results flagged for a closer look

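For each of the 10 genes and 3 genotypes, the highest and the lowest library were set against the nearest other library of the group. A gap that was large for the group's range stood out in 3 of 30 groups, where chance gives about 1 in 20. Eif2ak1 was 87.6 CPM in HOM 3, and the next lowest of the 10 HOM libraries was 94.5 CPM, a gap of 0.671 of the group's range. Ppp1r15a was 23.4 CPM in HOM 3, with the next highest HOM library at 16.7 CPM and a gap of 0.509 of the range. HOM 3 is the library with 2262 CPM of Schwann cell genes. Eif2ak2 was 24.9 CPM in HOM 8, with the next HOM library at 17.8 CPM and a gap of 0.735 of the range; HOM 8 also had 112 CPM of interferon-induced genes.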

How the results depend on the processing

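The 30 log2 fold changes of the 10 genes were recomputed under 31 alternatives, of which 22 left out 1 library each. None passed the test under any of them (smallest adjusted p 0.473), and 870 of 930 values kept their sign. The 60 that turned were all 0.063 or less in size. For Eif2b4 in HET against WT the value was -0.0008 with RLE size factors, -0.0006 with no filter, -0.0016 with DESeq2, -0.0033 with the 2 groups alone, -0.0052 with Xist as a covariate and -0.0020 in the libraries titled 40411 and 40412. With limma on log2(TPM + 1), Eif2ak2, Ppp1r15b and Impact in HOM against WT were -0.0048, 0.0011 and 0.0156, Eif2ak1, Eif2ak3 and Impact in HET against WT were 0.0309, 0.0593 and 0.0163, and Impact in HOM against HET was -0.0008. With log2(TPM + 0.1) the same values were -0.0046, 0.0010 and 0.0157, then 0.0316, 0.0630 and 0.0164, and -0.0008. When the title prefix was fitted as well, Ppp1r15b was -0.0203 in HET against WT and 0.0167 in HOM against HET, and Impact was -0.0014 in HOM against HET. Xist as a covariate gave -0.0205 for Ppp1r15b in HET against WT and 0.0105 for Eif2s1 in HOM against HET. In the libraries titled 40411 and 40412, Ppp1r15b in HET against WT was -0.0022 and Impact in HOM against HET -0.0050. The causes were not tested.

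With 1 library left out, the ranges that crossed 0 in HOM against WT were -0.0004 to 0.0226 for Eif2ak1, -0.0079 to 0.0948 for Eif2ak2 and -0.0581 to 0.0159 for Impact. In HET against WT they were -0.0188 to 0.0040 for Eif2ak1, -0.0445 to 0.0055 for Eif2ak3, -0.0818 to 0.0029 for Eif2s1, -0.0151 to 0.0337 for Ppp1r15b, -0.0117 to 0.0219 for Eif2b4 and -0.0626 to 0.0113 for Impact. In HOM against HET they were -0.0307 to 0.0124 for Eif2ak4, -0.0302 to 0.0196 for Eif2s1 and -0.0101 to 0.0337 for Impact.

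Over all genes, 16 were called in HOM against WT, 28 with DESeq2 and 8 in the libraries titled 40411 and 40412 (12 to 19 with 1 library left out). In HOM against HET 18 were called, 76 with DESeq2, 11 with limma on either TPM scale and 10 when the title prefix was a covariate. With 1 library left out the count was 10 to 39, namely 39 without HOM 10, 10 without HET 3, and 11 without HOM 1 or without HOM 4. HET against WT gave 0 under every alternative, with 578 genes at an unadjusted p below 0.05. Counts of list genes above WT, recomputed by alternatives chosen after seeing the data, moved by over 1.5 times in these cases. Of the 9 partners of eIF2 and eIF2B, 1 was above WT in HOM, but 0 with the title prefix and 2 with Xist as a covariate or without HOM 8, and 5 were above HET in HOM but 3 with the title prefix or without HOM 8. Of the immediate early genes, 7 were above WT in HOM but 2 with Xist, and 0 were above HET in HOM but 1 with the title prefix. With Xist, the counts above WT in HET were 2 of the 10 genes (4 without it), 2 of the 9 partners (4) and 6 interferon-induced genes (3). No paired analysis was possible because the replicate numbers follow the order of deposition and pair no libraries.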
